A study of Homo sapiens with 2 samples.

Results

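Interferon-stimulated genes and the interferon regulatory factors (IRFs) were compared between MEG-01 cells carrying a control vector and MEG-01 cells expressing GAS2DN, a truncated GAS2 that acts as a dominant negative. The members were 44 genes given by name, and all probe sets that the platform's table assigned to 1 of them alone were used, 89 probe sets of 43 genes among 19775 genes on the array. No probe set was assigned to STAT2 alone, so it has no value here. RIGI is written for DDX58. By known role the members were divided into 33 antiviral effectors and regulators, 4 sensors of foreign nucleic acid (RIGI, IFIH1, EIF2AK2 and IFI16) and 7 transcription factors (STAT2 and 6 IRFs).

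MEG-01 is an established megakaryoblastic line from chronic myeloid leukemia in blast crisis and carries BCR-ABL. One condition was transduced with the lentivirus that expresses Venus, an enhanced yellow fluorescent protein, and the other with the same kind of virus for GAS2DN, whose transgene is driven by the spleen focus forming virus promoter. In both conditions the transduced cells were purified with FACS and kept in RPMI1640 with FBS, so every cell compared had met a lentivirus, and no untransduced cells were analysed here. RNA from 3 extracts of each condition was pooled in equal amounts and put on 1 Affymetrix U133 Plus 2.0 human array. Since each condition had a single array, there are no replicates, tests or p-values, and 2 arrays limit the precision of every ratio.

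In the interferon response, an infected cell first recognises foreign RNA or DNA through sensors such as RIG-I (RIGI) and MDA5 (IFIH1). Signalling from them activates IRF3 and IRF7, which induce the type I interferons. Secreted interferon binds a receptor that works through JAK1 and TYK2, and the STAT2 and IRF9 proteins then form part of a complex that binds the interferon-stimulated response element (ISRE) in the promoters of many genes. Their products block viral entry, translation, replication and release, and many cells make some of them without any infection.

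The ISRE is what many members share by DNA sequence, and it was not used to choose them. It was searched as GAAA and GAAA with any 2 bases (NN) between them, on both strands of RefSeq promoter windows (GRCh38.p14) that run from 250 bases before to 50 bases after a transcription start site. Windows were at hand for 33 members. Of these 20 (60.6%) held a match in at least 1 window, compared to 4.38% of 27305 genes. The shorter gamma-activated site, searched as TTCNNNGAA, was found in 9 of the 33 members (27.3%) and in 9.38% of all genes, and 5 of its 12 matches in member windows overlapped an ISRE match. A match is a description of letters and not a shown binding site. The following stretches of 60 bases before the start site, written 5′ to 3′ on the strand of the gene with whole ISRE matches in capitals, are shown because they come from members with a higher signal (ISG15, IFI6), a nearly equal signal (BST2, IFIT1) and a lower signal (IFIT5, IFIH1) in GAS2DN cells.
ISG15, chr1:1013365-1013424, plus strand: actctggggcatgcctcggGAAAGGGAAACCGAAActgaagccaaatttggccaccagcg
IFI6, chr1:27672251-27672310, minus strand: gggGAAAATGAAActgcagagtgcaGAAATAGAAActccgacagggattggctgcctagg
BST2, chr19:17405720-17405779, minus strand: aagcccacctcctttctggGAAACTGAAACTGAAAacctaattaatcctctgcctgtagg
IFIT1, chr10:89392495-89392554, plus strand: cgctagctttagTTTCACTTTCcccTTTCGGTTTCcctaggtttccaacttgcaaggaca
IFIT5, chr10:89414508-89414567, plus strand: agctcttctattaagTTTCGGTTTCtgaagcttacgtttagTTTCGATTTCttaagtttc
IFIH1, chr2:162318685-162318744, minus strand: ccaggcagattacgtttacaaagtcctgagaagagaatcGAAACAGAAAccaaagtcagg

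The 20 members with a match held 44 matches over all their windows. Windows of neighbouring start sites can overlap, so the same bases are counted more than once in IFI27, PLSCR1 and IFI44. Of the 44 matches 43 began before the start site and 22 within 100 bases before it. Most of each window lies before the start site, and positions were not counted for all genes. The position counts are therefore no result about the members. A match of IFIT5 that began at -4 and those of EIF2AK2 and IFITM1 at -6 ran across the start site. In MX1 a match lay behind a start site. The 6 stretches differ in how the element is built. In ISG15 and in BST2 a pair of matches overlaps and gives 3 GAAA repeats in a row, whereas IFIT1, IFIT5 and IFI6 each show a pair of separate matches.

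**Figure D1:**
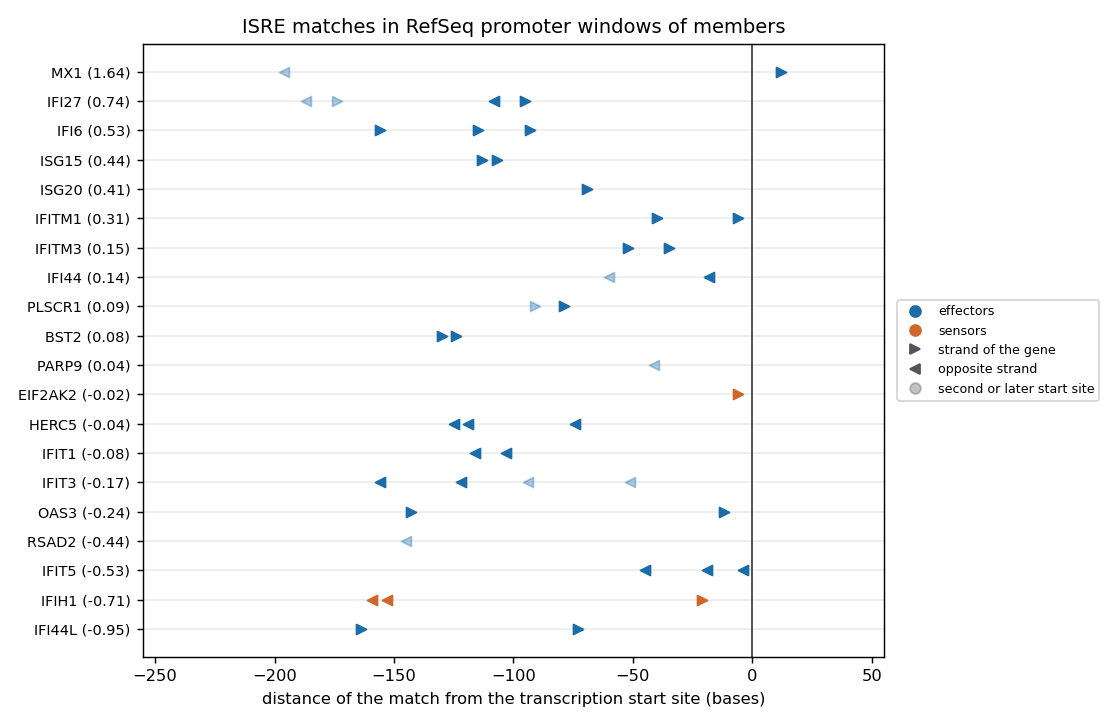
Distance in bases of each ISRE match from the transcription start site for the 20 members with a match, in RefSeq windows of 250 bases before to 50 bases after the start, with the log2 ratio (GAS2DN over Venus) in brackets. Triangles point right for the strand of the gene and left for the opposite strand, pale ones belong to second or later start sites of a gene, and colours give the role. The log2 ratios of the measured genes with a match run from -0.71 to 0.74, and 22 of the 44 matches, counted per window, begin within 100 bases before a start site. Positions were not counted for all genes.

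The values are MAS5 signals, and a ratio is that of GAS2DN over Venus. To be eligible, a probe set needed a brighter signal no lower than the median of the array it came from, which was 55.6 for Venus and 69.1 for GAS2DN. The main probe set of a gene is its brightest one, without those ending in _x_at where another exists, and a gene is called measured when its main probe set was eligible. The main probe sets of 41 of the 43 members were eligible (95.3%), compared to 66.2% of all genes, and in 29 members (67.4%) the brighter signal was at or above percentile 75 of its array, compared to 40.3% of all genes. MX1 and IFI44L were the members that were not measured. Both signals were at or above the array median in 39 of the 41 measured members (95.1%), compared to 85.3% of all measured genes.

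The label of the cells was checked on marker genes. Of 14 megakaryocyte genes with a probe set, 11 were measured, with summed signals of 42193 in Venus and 45611 in GAS2DN cells, but PF4, PPBP and VWF were below the median on both arrays. Plasmacytoid dendritic cells are the main interferon producers of blood, and none of their 3 markers was measured, with sums of 55.8 and 139.9. Of 5 markers of T and B cells, CD79A and MS4A1 were measured, with sums over the list of 254.3 and 351.1, while CD3D, CD3E and CD3G were not. Of 4 monocyte markers only LYZ was measured, with sums of 346.7 and 293.2, and CD14 had 5.13 and 4.48. Of 5 fibroblast markers only COL1A2 was measured, with sums of 196.7 and 234.6 over the main probe sets. Other eligible probe sets were 1 of COL1A1, with 283.7 and 402.3, and a pair for DCN, with 58.6 and 130.8 and with 56 and 108.6. The part of these differences in the results below was not tested. In a bulk sample, fewer cells that express a gene and less RNA per cell cannot be told apart.

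The interferon response genes as a group had nearly equal signals in both conditions. Over the 41 measured members the median log2 ratio was 0.02, with quartiles of -0.23 and 0.18, while the median over all 13086 measured genes was 0.06. A log2 ratio above 0 was found in 22 members and below 0 in 19. With each array centred on its median, which lowers every log2 ratio by 0.312, these counts were 7 and 34. The median of all measured genes was then -0.255. With loess scaling, and also with quantile normalization, the counts were 20 and 21. The sign of a small ratio thus depends on the scaling, and mostly on centring. In 33 members (80.5%) the log2 ratio was within 0.5 of 0, compared to 72.1% of all measured genes. Where both signals were at or above the median, these shares were 82.1% of 39 members and 82.6% of all such genes. By the main probe set 2 members, OAS2 and IRF5, were over 2-fold higher (4.88%), against a background of 7.91% of all measured genes. No member was over 2-fold lower, against a background of 4.45%. With centred arrays 2 members were over 2-fold higher and 2 lower, IFIH1 and IRF2, while 5.8% and 7.3% of all measured genes were. Among genes with both signals at or above the array median, 1 of 39 members was over 2-fold higher and 0 lower, with a background of 1.51% and 1.26%. All these shares rest on 2 members or fewer, so they are no result about the list. The interquartile range of the log2 ratio was 0.40 for the 39 members and 0.42 for all genes with such signals.

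**Figure D2:**
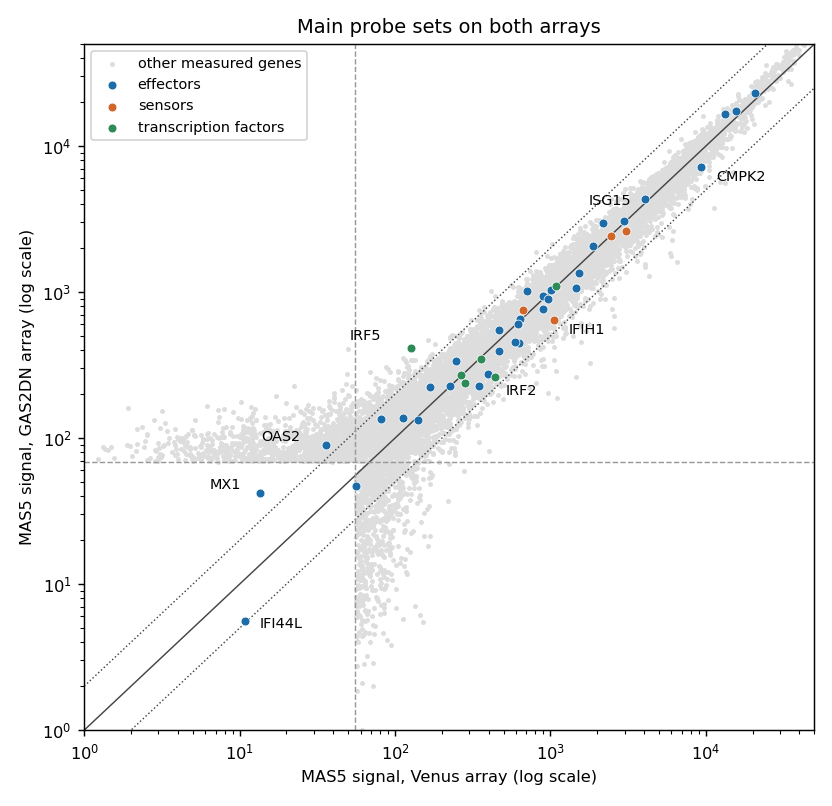
MAS5 signal in Venus cells (x axis) and in GAS2DN cells (y axis), both on log scales, for the main probe sets of the 43 members, coloured by role, and of other measured genes in grey. The solid line marks equal signals, dotted lines a 2-fold difference and dashed lines the array medians of 55.6 and 69.1. Most members lie near the solid line well above the medians, while IRF5, OAS2 and MX1 lie above the upper dotted line. The Venus signals of OAS2 and MX1 are below the median.

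The effectors had a median log2 ratio of 0.045 over 31 measured genes, the sensors -0.12 over 4 and the transcription factors -0.02 over 6. The effector median was higher than that of sensors and transcription factors combined by 0.075. With the median over the eligible probe sets of each gene in place of the main one, the sensors had 0.034 and the effectors 0.001. The order of the roles thus depended on which probe sets were used.

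**Figure D3:**
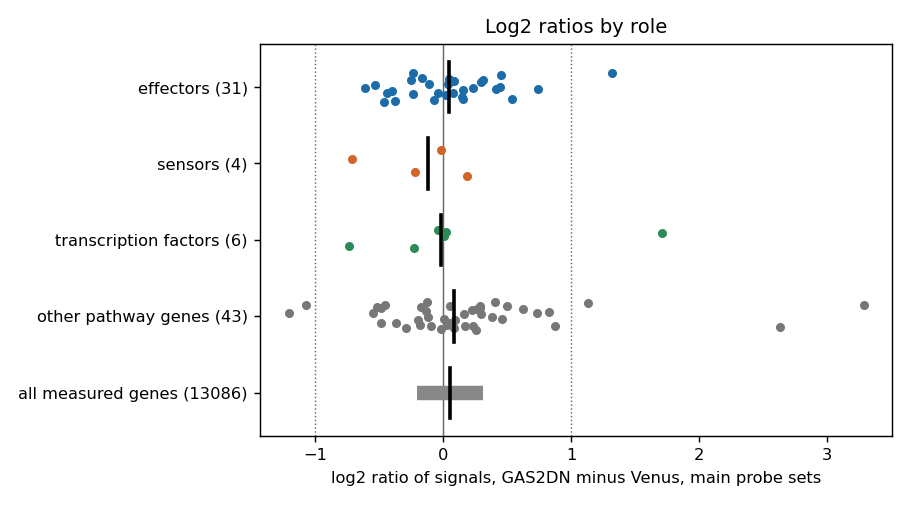
Log2 ratio (GAS2DN over Venus) of main probe sets (points) for the measured genes of each role and for other genes of the pathway, with the number of genes in brackets and the median as a black bar. The grey bar spans the quartiles of all 13086 measured genes, and the dotted lines mark 2-fold. The medians of 0.045, -0.12 and -0.02 lie within the grey bar.

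Among the IRFs, IRF5 stood out, a factor that is known to act downstream of Toll-like receptors in myeloid and B cells. Its main probe set 205469_s_at had a signal of 127 in Venus and 416.4 in GAS2DN cells, 3.28 times as much. Its second eligible probe set, 239412_at, had 113.6 and 94.5, a log2 ratio of -0.27. The remaining one, 205468_s_at, was dim with 8.46 and 15.3. The high ratio of IRF5 was thus read by 1 probe set and not by the other eligible one, and none of its 4 promoter windows held an ISRE match.

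The other IRFs had smaller ratios. IRF2, which is known to repress the targets of IRF1, had 437.9 in Venus and 262.9 in GAS2DN cells, a log2 ratio of -0.74 and the lowest main value of all measured members. IRF1, an activator that interferon gamma induces strongly, had 1093 and 1095 in one probe set and 855.7 and 976.2 in the other. IRF1 thus stayed close to equal in both of its probe sets, while IRF2 was read by a single one. IRF3, the constitutive factor behind the first wave of interferon, had 267.4 and 271.3. IRF7, which amplifies that wave, had 279.9 and 239. IRF9, the DNA-binding partner of STAT2, had 357.1 and 347, and a probe set shared with RNF31 had 295.6 and 318.3. These 3 factors lay within 0.23 of equal signals on the log2 scale.

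Among the sensors the main value farthest from 0 was that of IFIH1, the sensor of long double-stranded RNA, with 1058 in Venus and 645.6 in GAS2DN cells, and the ratio was 0.61. Its other 2 probe sets were dim in both conditions and had log2 ratios of 0.28 and 0.58. RIGI, which recognises short RNA with a triphosphate end, pointed the other way in each of its 3 probe sets, with 662.2 and 752.5, with 340.8 and 448.1, and with 94.3 and 126. All 3 were eligible, and their log2 ratios were 0.18 to 0.42. EIF2AK2 encodes PKR, the kinase that stops translation when it binds double-stranded RNA, and its main probe set had 2470 and 2436. Its other eligible ones had log2 ratios of 0.29 and 0.36. IFI16, a sensor of DNA, had 3069 and 2638 in the main probe set, and its 3 eligible log2 ratios were between -0.25 and 0.04. The main values of the sensors thus lay on both sides of 0 and under 2-fold. With centred arrays all 4 were below 0, at -0.13 for RIGI, -1.02 for IFIH1, -0.33 for EIF2AK2 and -0.53 for IFI16, and IFIH1 was over 2-fold lower.

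The IFIT proteins bind viral RNA that lacks the marks of a host transcript, and their genes lie next to each other on chromosome 10 with 1 other coding gene among them. IFIT5 was lower in both of its probe sets, with 396.5 in Venus and 274 in GAS2DN cells in 203595_s_at and with 209.6 and 96.2 in 203596_s_at, log2 ratios of -0.53 and -1.12. It was the only member with 2 or more eligible probe sets that were all below 0. IFIT1 had 140.4 and 133.2 in its single probe set. IFIT3 had 1526 and 1358 in the main and 391.6 and 480.8 in the other probe set, so the direction differed between them. IFIT2 had 225.5 and 229.1 in the main probe set 226757_at. Its second one, 217502_at, had 63.5 and 7.398, a ratio of 0.116, and was the only eligible member probe set over 3-fold lower. The GAS2DN signal of 217502_at was far below the array median, and with low signals raised to the median its log2 ratio was 0.12. Apart from 217502_at, the neighbours of IFIT5 in the cluster had log2 ratios between -0.17 and 0.30.

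At a wider threshold of 3-fold, 1 of 41 members had an eligible probe set that was higher, IRF5, and 1 had one that was lower, IFIT2, both 2.44%. The background was 8.69% of genes for higher and 6.09% for lower. Over 2-fold, 4 of 74 eligible member probe sets were higher and 2 were lower, 5.41% and 2.7%, against 8.51% and 6.07% of all eligible probe sets. The 4 were those of IRF5 and OAS2 and 2 of PML, and the 2 were those of IFIT2 and IFIT5. Both shares of the members were below the background, on counts of 4 and 2. The 3-fold and probe set shares did not compare genes of like brightness, since 67.4% of members but 40.3% of all genes reached percentile 75. Where neither main signal was below its array median, 2.56% of 39 members were over 2-fold higher, against 1.51% of all such genes. Over 2-fold lower were 0 members, against 1.26%. The lower shares are therefore no result about the list.

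PML, the scaffold of nuclear bodies that also hold SP100, was read by 10 probe sets, and the 7 eligible ones all had a log2 ratio above 0. The main one, 235508_at, had 245.4 in Venus and 335.9 in GAS2DN cells. The probe sets with the highest ratios were 239582_at, with 53.6 and 142.8, and 209640_at, with 60.1 and 134.7, ratios of 2.66 and 2.24. Those with the smallest ratios, 1.19 and 1.12, were 206503_x_at, with 373.3 and 443.3, and 211013_x_at, with 365.3 and 410. PML was thus higher in each eligible reading, by amounts between 1.12 and 2.66 times, but with centred arrays those of 206503_x_at and 211013_x_at were below 0, at -0.06 and -0.15 on the log2 scale. The 3 dim ones had log2 ratios of 0.11, -0.04 and -0.33. SP100 itself had eligible log2 ratios between -0.87 and 0.31 in 6 probe sets, with 970.3 and 896.7 in the main one, and showed no common direction.

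The OAS genes encode enzymes that make 2-5A, the activator of RNase L, and OAS1, OAS3 and OAS2 are neighbours on chromosome 12. OAS3 was above the array medians in both of its probe sets, with 468.9 in Venus and 397 in GAS2DN cells and with 94.0 and 129.3. OAS1 was near the median or below it, with 56.1 and 47.1 in the main probe set. OAS2 had 36.0 and 89.8 in the main probe set 206553_at, a ratio of 2.50. Its other 2 probe sets were dim in both conditions, with 5.47 and 66.3 and with 27.8 and 5.20, so 1 was higher and 1 lower in GAS2DN cells. OASL, a relative without this enzyme activity, had 112.2 and 137.6, and a log2 ratio of -0.44 in its second probe set. The higher value of OAS2 thus rested on signals around or below the array median.

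Dim signals also gave the large ratios of other members. MX1, a GTPase that traps viral nucleocapsids, had 13.5 in Venus and 42 in GAS2DN cells, a log2 ratio of 1.64, and was not measured. Its neighbour on chromosome 21, MX2, had 633.7 and 649.7. IFI44L had 10.9 and 5.63, while its neighbour IFI44 had 1875 and 2072 in the main probe set. A dim probe set of PLSCR1, a phospholipid scramblase, had 1.999 and 21.0, but the main one had 4075 and 4322. Likewise a dim probe set of SAMHD1, which degrades the nucleotides that reverse transcription needs, had 28.5 and 2.63. The 4 eligible ones had log2 ratios between -0.71 and 0.32. In all, 5 of 15 dim member probe sets were over 2-fold in either direction (33.3%), compared to 55.4% of all dim probe sets.

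**Figure D4:**
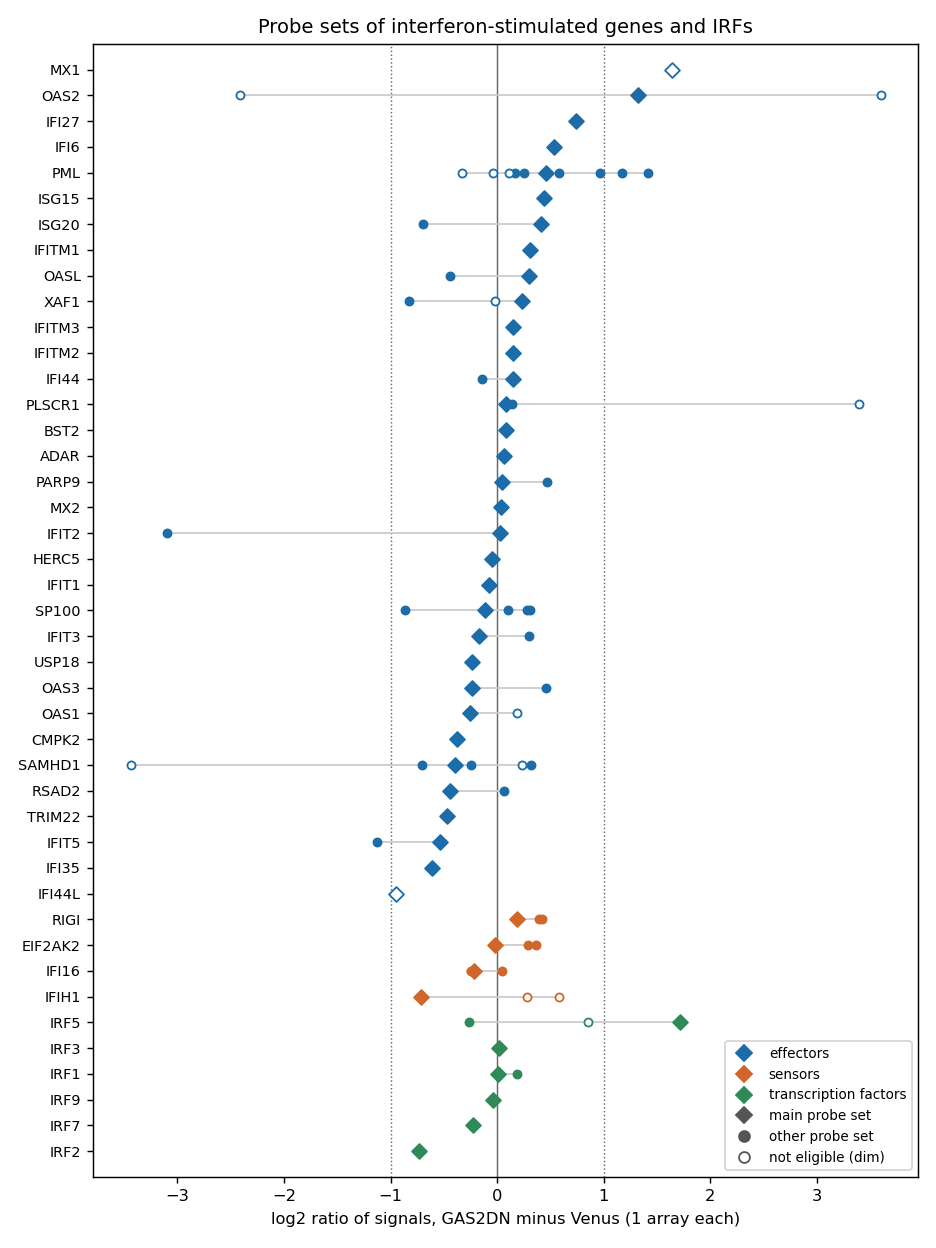
Log2 ratio (GAS2DN over Venus) for all 89 probe sets of the 43 members, grouped by role and ordered by the main probe set (diamonds). Open symbols are dim probe sets that were not eligible, and the dotted lines mark 2-fold. The widest spreads within a gene, in OAS2, SAMHD1, IFIT2 and PLSCR1, end in a dim symbol or in 217502_at of IFIT2.

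The membrane proteins had slightly higher signals in GAS2DN cells as deposited and with loess scaling or quantile normalization, but not with centred arrays. The IFITM proteins hinder the fusion of viruses with endosomes, and their 3 genes are neighbours on chromosome 11. IFITM1 had 13381 in Venus and 16594 in GAS2DN cells, IFITM2 20776 and 23084, and IFITM3 15609 and 17339. Their log2 ratios were 0.31, 0.15 and 0.15, and with centred arrays -0.001, -0.16 and -0.16. Their probe sets end in _s_at or _x_at and can read transcripts of more than 1 gene of this near-identical family, and another one is assigned to IFITM1 and IFITM2 together, with 9784 and 13604. They are therefore not independent readings. BST2, or tetherin, which holds budding virions at the cell surface, had 890 and 939.5, a log2 ratio of 0.08 that was -0.23 with centred arrays.

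The ISG15 system couples a ubiquitin-like protein to newly made proteins. ISG15 itself had 2175 in Venus and 2957 in GAS2DN cells, and the ratio was 1.36. HERC5, its ligase, had 621 and 601.7, and USP18, the protease that removes it and also blocks the interferon receptor, had 901.5 and 765.8. The modifier was thus higher as deposited and HERC5 and USP18 were not, each read by 1 probe set. With centred arrays the log2 ratios were 0.13 for ISG15, -0.36 for HERC5 and -0.55 for USP18. Both IFI6 and IFI27, small mitochondrial proteins, were higher, with 702.4 and 1017 and with 81.0 and 135.3, log2 ratios of 0.53 and 0.74. IFI27 had the highest main value of the measured members after IRF5 and OAS2.

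CMPK2 and RSAD2 lie side by side on chromosome 2 and encode enzymes of nucleotide metabolism, a mitochondrial kinase and viperin, which makes a chain-terminating nucleotide. CMPK2 had 9370 in Venus and 7209 in GAS2DN cells, and RSAD2 had 1450 and 1069 in the main and 670.7 and 698.7 in its other probe set. The main log2 ratios of this pair were -0.38 and -0.44. IFI35 and TRIM22 were also lower, with 345.6 and 226 and with 623.5 and 451.1, ratios of 0.654 and 0.724, each from 1 probe set. XAF1, a partner of the apoptosis inhibitor XIAP, had 467 and 549.2 in one probe set and 371.4 and 209 in another. ISG20, an exonuclease of RNA, was divided in the same way, with log2 ratios of 0.41 and -0.69. PARP9, a member of the PARP family of ADP-ribosyltransferases, had 0.045 and 0.47. ADAR, the enzyme that edits adenosine in double-stranded RNA, had 2957 and 3087.

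How well the probe sets of 1 gene went together can be counted. Of 19 members with at least 2 eligible probe sets, 6 had all of them on the same side of 0 (31.6%), compared to 39.4% of 6422 genes. On the higher side these were IRF1, PARP9, PLSCR1, PML and RIGI, and on the lower side IFIT5. With centred arrays 11 members, IFIT5 among them, were below 0 in all of theirs and 0 were above. Of the 43 members 21 were read by 1 probe set, so their values have no second reading.

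The ratios of members with and without an ISRE match overlapped widely. The 18 measured members with a match had a median log2 ratio of 0.06 and a range of -0.71 to 0.74, and the 12 without one had -0.08 and a range of -0.61 to 1.71. None of the 18 was over 2-fold in either direction, while 6.92% of 419 measured genes with a match were over 2-fold higher and 4.3% lower. The 419 were not matched to the members for brightness, and 18 genes are few, so this is no result about the members. Within the effectors the medians were 0.08 over 16 genes with a match and -0.25 over 7 without one, and this difference was not tested. Over all measured genes with a window, the 419 with a match had a median of 0.07 and the 10144 without one 0.05. The sequences shown above were taken from members with a match and by their ratios. They include IFIT5 and IFIH1, with log2 ratios of -0.53 and -0.71, and ISG15 and IFI6, with 0.44 and 0.53. That all of them carry the element follows from this choice.

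Other genes of the pathway, from a list of 60 of which 56 had a probe set, gave the surroundings of these members. Over 43 measured genes the median log2 ratio was 0.08, and 3 were over 2-fold higher and 2 over 2-fold lower, beside 7.91% and 4.45% of all measured genes. These counts are near the background and are no result about the pathway. Of 7 interferon genes only IFNL1 was measured, with 42.4 in Venus and 75.1 in GAS2DN cells, and the others, IFNB1 and IFNG among them, were below the median on both arrays. The receptor chains IFNAR1 and IFNAR2 had 627.3 and 572.6 and 1271 and 1125, and the kinases JAK1 and TYK2 had 4955 and 5140 and 1334 and 1226. By their main probe sets the type I interferon receptor and its kinases were therefore read in both conditions at nearly equal signals. Other eligible probe sets had log2 ratios of 0.242, 0.047 and -0.065 for IFNAR1, 0.205 and 0.143 for IFNAR2, and 0.547 and -0.232 for JAK1.

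The pathway genes over 2-fold by their main probe sets were of both kinds, bright and dim. GBP1, a GTPase that interferon gamma induces, had 346.3 in Venus and 757.3 in GAS2DN cells, 2.19 times as much. Its other eligible probe sets had log2 ratios of 0.77 and 0.61, and a dim one with 4.13 and 9.57 had 1.21. All eligible probe sets of GBP1 were thus higher, but only the main one of these was over 2-fold. TLR3, an endosomal receptor of double-stranded RNA, had 294.9 and 127.7, a ratio of 0.433, and log2 ratios of -0.16 in another eligible and -3.28 in a dim probe set. IKBKE, a kinase that phosphorylates IRF3, had 259.6 and 123.3, though 0.05 in its second probe set. IRF8, a factor of monocytes and dendritic cells, had 14.4 and 89.4, and IFNLR1, the interferon lambda receptor, had 8.83 and 86.2. The Venus signals of IRF8 and IFNLR1 were far below the median, and a dim probe set of IFNLR1 had a log2 ratio of -3.02. JAK2, SOCS3 and PARP14 had another eligible probe set over 2-fold, while their main ones had log2 ratios of 0.088, 0.297 and 0.285. For JAK2 it had 1141 in Venus and 352.6 in GAS2DN cells. For SOCS3 it had 74.35 and 185.9, and for PARP14 2.996 and 73.59.

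Centring each array moved the medians of all roles and of all measured genes together, and the list median was the same distance from that of all genes before and after it, with a difference of -0.036. Other summaries of the probe sets moved the roles by unlike amounts and brought their medians closer together than the 0.045, -0.12 and -0.02 of the main probe sets. When sets ending in _s_at or _x_at were left out, the medians were -0.01 for effectors, -0.02 for sensors and -0.04 for transcription factors.

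**Figure D5:**
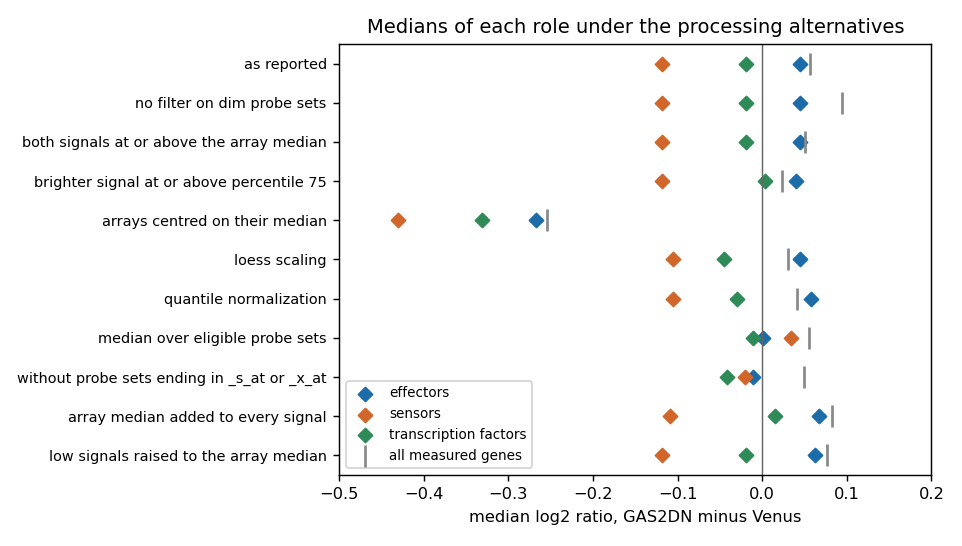
Median log2 ratio (GAS2DN over Venus) for effectors, sensors, transcription factors (diamonds) and all measured genes (grey bars), as reported and under 10 processing alternatives. The roles stay near the median of all genes in each, and centring the arrays shifts everything to lower values.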

How the data were processed

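The deposited values are log2 of MAS5 signals for 54675 probe sets. MAS5 is named in the submitters' processing notes with no version, and both arrays have a 2% trimmed mean signal of 500.1, so each was scaled to the same level before the authors deposited the log2 signals. No detection calls were part of the values. The 62 control probe sets were left out, and only the 41091 probe sets that the platform's table assigns to 1 gene were used. Symbols were updated through the gene identifier for 41037 of them. Log2 ratios are GAS2DN minus Venus. The eligible, main and measured rules are given with the results, and 2-fold and 3-fold were the thresholds. The members, their roles, the other pathway genes, the markers and the motifs were chosen with earlier results of these data known. Named members are those with an eligible probe set over 2-fold or a main probe set over 2-fold on a dim signal, named pathway genes are those over 2-fold by an eligible main probe set, and other names were chosen after their values were seen. The alternatives were 3 other filters on low signals, array centring, quantile normalization, loess scaling (span 0.2, iterations 3), 2 other summaries of a gene's probe sets, and adding or raising to the array median. The steps were tested on simulated data. Promoter windows and sequences are those of RefSeq (GRCh38.p14), matched by symbol for 33 of the 44 members. Software was matplotlib 3.10.9, statsmodels 0.14.6, scipy 1.17.1, pandas 2.3.3 and numpy 2.4.6 under Python 3.11.15.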

Additional observations from a re-analysis of the deposited data

How the results depend on the processing

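With arrays centred on their median the median log2 ratio was -0.291 for the members, -0.267 for effectors, -0.431 for sensors and -0.331 for transcription factors. Under the other 9 alternatives these medians were between -0.031 and 0.060, -0.011 and 0.067, -0.119 and 0.034, and -0.045 and 0.015, and the effector difference was 0.012 to 0.092 over all 10. The count of members over 2-fold higher was 1 in place of 2 where neither signal was below the median, where the brighter one reached percentile 75, by the median over a gene's eligible probe sets, when sets ending in _s_at or _x_at were left out, with the array median added and with low signals raised. That member was OAS2 by the median over probe sets and without _s_at or _x_at sets, and IRF5 in the others. Without a filter the count was 3, with MX1. The count over 2-fold lower was 2 in place of 0 after centring (IFIH1 and IRF2) and 1 by the median over probe sets (IFIT2). Without a filter 4 members had a probe set over 3-fold higher and 3 had one lower. That 3-fold count of higher members was 0 after centring, by the median over probe sets, without _s_at or _x_at sets and with the array median added. The 3-fold count of lower members was 0 where neither signal was below the median, with percentile 75, by the median over probe sets, with the array median added and with low signals raised. IRF5 had a log2 ratio of -0.266 when _s_at and _x_at sets were left out, which leaves it to its second probe set, and 0.72 by the median over probe sets. IFIT2 had -1.54 by that median. Of 385 single values 34 changed sign, 15 of them by centring, and 5 moved by at least 0.606, the SD between eligible probe sets of a member. Besides the 3 given for IRF5 and IFIT2 these were OASL with -0.441 without _s_at or _x_at sets and OAS2 with 0.691 with low signals raised. No paired analysis was possible because each condition has 1 array. Signals below the array median limit OAS2, MX1, IFI44L and 217502_at of IFIT2.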
